A study of Danio rerio with 13 samples.

Results

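Of 9524 regions of the zebrafish genome in which 6mA-IP-seq found a summit at 11, 12 or 13 h post fertilization (hpf), 1238 (13.0%) had no summit at the 64-cell stage (64C) with either of 2 antibodies. These later-only regions were chosen as follows. The summits of all 8 immunoprecipitated (IP) libraries were pooled, summits with gaps of at most 250 bp on the same sequence were chained into 63852 regions, and regions were taken that held a summit of at least 1 of the 6 libraries of 11, 12 and 13 hpf and of neither 64C library. The other 8286 regions of the later stages also held a 64C summit and serve here for comparison. The regions were thus selected on the presence and absence of summits in the same 8 lists, so that their absence at 64C is a description and not a finding.

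The embryos came from the Tubingen line, were pooled by stage, and no treatment or genotype beyond the line is given in the labels. The SYSY antibody against 6mA was used on 1 IP library of 64C and on 2 biological replicates each of 11, 12 and 13 hpf, and the Abcam antibody on 1 further IP library of 64C. Each later stage had 1 input, so that both its replicates were compared with the same unenriched genomic DNA (gDNA). A summit is a local maximum of enrichment within a peak called on 1 IP library against its input, and a peak can hold several summits. The score of a summit is the −log10 of the q-value.

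6mA is adenine with a methyl group on its exocyclic nitrogen, a common mark in bacterial DNA that is far rarer in most animal DNA. In 6mA-IP-seq, sheared gDNA is pulled down with an antibody and stretches where the pulled-down reads outnumber those of the input are called as peaks. At 64C the zebrafish embryo is a cap of cleaving cells that still lives on RNA and protein laid down in the egg. At 11 to 13 hpf gastrulation is over, the embryo transcribes its own genome and the first somites form along its axis.

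The 64C lists were far longer than the later ones, with 79291 summits for SYSY and 53511 for Abcam against 2439 to 7582 in the 6 later libraries. The depth behind these numbers is unknown, since reads were not analysed here. The 64C SYSY list held no summit on unplaced scaffolds and stopped over 100 kb short of the last summit of another library on 5 chromosomes (4, 6, 15, 18 and 21). In these parts of the genome absence at 64C rested on the Abcam list alone, and results are given with and without them. The 25 numbered chromosomes, each taken only as far as its 64C SYSY summits reach, are called covered sequence. Marks in the peak names differ between the 64C lists and the 6 later lists, and stage cannot be told apart from a difference in experiment. The q-values were not compared between libraries.

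Most later-only regions were seen once. A summit was present in exactly 1 of the 6 later libraries in 1042 of the 1238 regions (84.2%), and 1030 regions consisted of a single summit. In 2 or more libraries lay 196 regions (15.8%, 95% Wilson interval 13.9 to 18.0%, for counting error only), where 43.6% of all regions of the later stages recurred in this way. In both replicates of at least 1 stage there were 102 regions (8.24%, 6.83 to 9.90%), against 29.5% of all regions of the later stages. Of these 102 regions, 82 had both replicates of 1 stage, 15 of 2 stages and 5 of all 3 stages. In 4 or more libraries lay 36 regions (2.91%, against 15.4% of all later regions) and in all 6 libraries 5 (0.404%, against 5.03%). Of the regions also found at 64C, 47.8% lay in 2 or more later libraries and 32.7% in both replicates of a stage. Recurrence and absence at 64C were read from the same lists, and the difference in these shares is given as a description. Chaining also ran through 64C summits, which can join separate later summits into 1 longer region and so raise recurrence in the comparison regions. The widths of the regions also found at 64C were not compared with those of the later-only regions.

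Recurrent later-only regions were concentrated where the 64C SYSY list had no summits. Of the 1238 regions, 970 lay in covered sequence, 202 on scaffolds and 66 past the last 64C SYSY summit of a chromosome. In covered sequence 97 of 970 regions (10.0%) recurred in 2 or more libraries (42.7% of all later regions there) and 34 (3.51%) in both replicates of a stage (28.5% of all later regions there). Outside covered sequence 99 of 268 (36.9%) recurred and 68 (25.4%) had both replicates, against 51.7% and 38.5% of all later regions there. These parts thus held 21.6% of the later-only regions, 50.5% of those in 2 or more libraries, 66.7% of those in both replicates of a stage and 28 of the 36 in 4 or more libraries (22.8% of all later regions there were in 4 or more). Covered sequence held the other 8 (0.825%, against 14.6% of all covered later regions). All 5 regions present in the 6 later libraries lay outside covered sequence (1.87%, against 9.74% of all later regions there). None of the 970 covered regions was present in all 6, where 4.50% of all covered later regions were. Whether the missing SYSY summits account for this contrast was not tested.

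**Figure D1:**
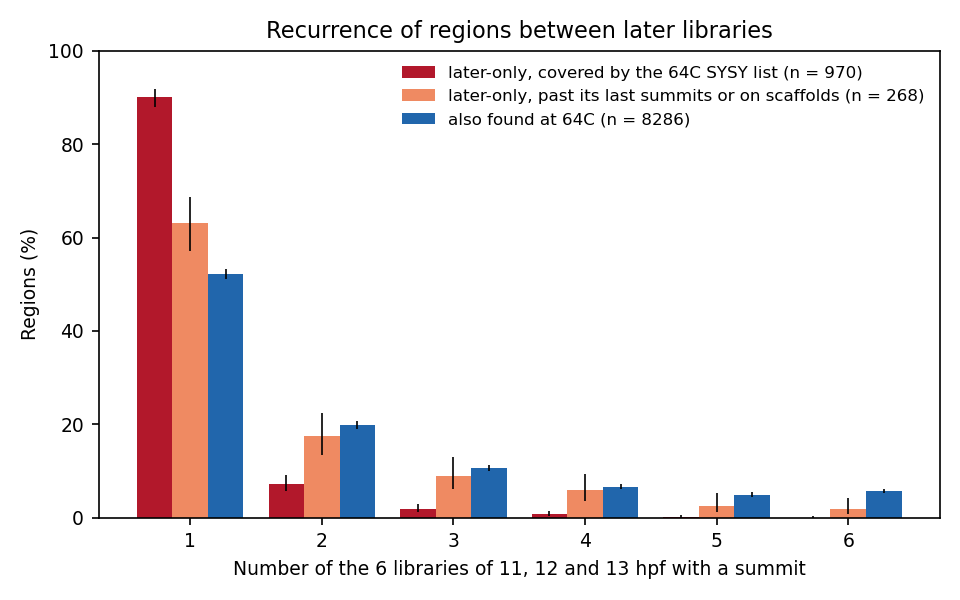
Share of regions (%, vertical axis) by the number of the 6 libraries of 11, 12 and 13 hpf that held a summit (horizontal axis), with 95% Wilson intervals for counting error only. Later-only regions in sequence covered by the 64C SYSY list (n = 970) lay in 1 library in 90.0% of cases, those outside it (n = 268) in 63.1%, and regions also found at 64C (n = 8286) in 52.2%.

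Named by rule were the 12 later-only regions in the most libraries, ordered by the mean percentile of their best score within each library. Of these 12 regions 9 lay on unplaced scaffolds, 2 near the end of chromosome 4 and 1, on chromosome 5, in covered sequence. All positions are those of danRer10. The genes and sequence at these positions were not analysed here. A read that matched several places equally well had been given to a random one, so that a summit in repeated sequence can stand for another copy of the repeat.

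The first region, on chrUn_KN149921v1 from 27658 to 27930, held 12 summits. Its best scores in replicates 1 and 2 were 8.37 and 8.15 at 11 hpf, 11.2 and 14.3 at 12 hpf, and at 13 hpf 8.96 and 13.0. Its mean percentile was 90.5, so that it stood among the higher scores of all 6 libraries, and no 64C summit of either antibody lay anywhere on this scaffold. The second region, on chrUn_KN150402v1 from 95 to 677, was the richest in summits, with 14, and its best scores were 16.4 and 12.4 at 11 hpf, 5.18 and 4.95 at 12 hpf, and at 13 hpf 5.35 and 4.21. By rank within the libraries it was thus higher at 11 hpf than at the later stages. The nearest Abcam summit of 64C lay 23443 bp away.

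The third and the fifth regions belong to the long arm of chromosome 4, which in zebrafish is known to be heterochromatic, late replicating and rich in repeats. The third lies from 75603523 to 75603799, with best scores of 9.07 and 8.92 at 11 hpf, 4.37 and 13.8 at 12 hpf, and at 13 hpf 2.59 and 4.21. The fifth lies from 76328621 to 76328716, where each library had 1 summit, with scores of 7.13 and 5.12 at 11 hpf, 2.41 and 3.89 at 12 hpf, and at 13 hpf 2.84 and 4.44. In the fifth region the scores stayed in the lower and middle range of most libraries, with a mean percentile of 44.7. The nearest Abcam summits lay 59097 and 30505 bp away. The 64C SYSY list ends at position 61983244 of this chromosome.

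Past that position chromosome 4 held 23 later-only regions, of which 11 recurred and 6 lay in 4 or more libraries. All 11 recurrent ones had a summit in both replicates of a stage. Of all 71 later regions there, 38 (53.5%) recurred, 16 (22.5%) lay in 4 or more libraries and 29 (40.8%) had both replicates of a stage, so that the later-only regions were near this background. From 76000001 to 77000000, a window singled out after its values were seen, 7 later-only regions stood beside 1 region also found at 64C, and 6 of the 7 recurred. This window also lies past the last 64C SYSY summit. The Abcam list had 22 summits in this window, so that it was not empty of 64C signal. Chromosome 4 also held 8 of the 12 later-only regions farther than 100 kb from any 64C summit. All 8 lie past the last 64C SYSY summit, where absence at 64C rests on the Abcam list alone.

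The other scaffold regions of the 12 ranged from 81 to 608 bp in width. The fourth, on chrUn_KN149716v1 from 27571 to 28178, was present in all 6 libraries with best scores from 2.13 in replicate 1 of 13 hpf to 6.68 in replicate 2 of 12 hpf. The sixth, on chrUn_KN149984v1 from 35060 to 35602, scored 8.18 and 7.93 at 11 hpf, 7.54 and 7.80 at 12 hpf and 9.34 in replicate 1 of 13 hpf, and was absent from replicate 2 of 13 hpf, the shortest list. The seventh, on chrUn_KN149910v1 from 36571 to 36843, scored 11.5 and 6.88 at 11 hpf, 7.79 and 11.2 at 12 hpf and 4.83 in replicate 2 of 13 hpf, and was absent from replicate 1 of 13 hpf. For the sixth and seventh an Abcam summit of 64C lay 1041 and 831 bp away, so that their scaffolds were not empty at 64C. The remaining 4, on chrUn_KN150227v1, chrUn_KN150079v1, chrUn_KN150466v1 and chrUn_KN149844v1, were each missing from 1 library and had mean percentiles from 49.8 to 54.1. An Abcam summit of 64C lay 325 bp from the region on chrUn_KN150466v1, close to the limit of 250 bp, and 2690 bp from that on chrUn_KN150079v1. On chrUn_KN150227v1 and chrUn_KN149844v1 there was no 64C summit.

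Covered sequence runs to the last 64C SYSY summit of a chromosome, and stretches without such summits inside it were not set apart. In covered sequence 8 later-only regions lay in 4 or more libraries and were listed after their values were seen. The leading one, eighth of the 12 above, lies on chromosome 5 from 64436746 to 64436797. It scored 4.86 and 10.1 at 11 hpf, 8.57 and 12.7 at 12 hpf and 2.51 in replicate 1 of 13 hpf, with no summit in replicate 2 of 13 hpf. Its 5 summits fell within 52 bp, and the nearest 64C summits lay 20459 bp (SYSY) and 76786 bp (Abcam) away. It was the only covered later-only region present in 5 libraries.

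The other 7 were present in 4 libraries each. The second, on chromosome 18 from 40247729 to 40247742, had summits in both replicates of 11 hpf (7.13 and 7.93) and of 13 hpf (2.85 and 4.90) and in no library of 12 hpf. The fourth, on chromosome 12 from 42851896 to 42851930, had summits in both replicates of 12 hpf (4.71 and 6.75) and of 13 hpf (2.02 and 7.89) and in no library of 11 hpf, which made it the 1 region of the 8 with that pattern. The remaining ones lie on chromosomes 17, 20, 21, 24 and 11, from 52998599, 52578179, 19082353, 29827196 and 8354010. Their mean percentiles ran from 29.3 on chromosome 11 to 58.4 on chromosome 17.

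**Figure D2:**
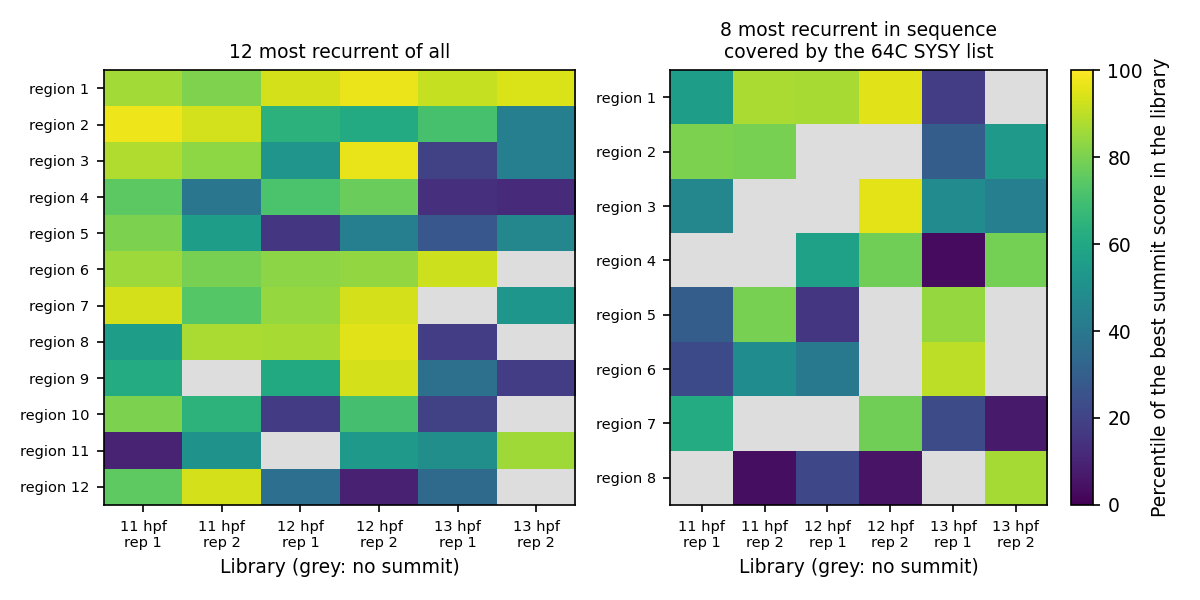
Percentile of the best summit score within each library (colour, 0 to 100) for the 12 later-only regions in the most libraries (left) and the 8 covered by the 64C SYSY list in 4 or more libraries (right), with 1 column per library and grey where a library had no summit. The first region is in the upper range in every library, whereas all regions on the right lack a summit in at least 1 library.

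The highest scores of later-only regions lay outside the 12 named above. The region with the highest later-only score in each library was picked after its values were seen. In replicate 1 of 11 hpf it was chrUn_KN149855v1 from 18682 to 18687, which scored 36.6 there, 22.9 in replicate 2 of 11 hpf and 13.4 in replicate 2 of 12 hpf, and was absent from the other 3 libraries. An Abcam summit of 64C lay 286 bp away, just past the limit of 250 bp. The region on chrUn_KN150493v1 from 12946 to 12949 scored 35.0 and 29.4 at 11 hpf and 15.8 and 19.6 at 12 hpf and was absent from both libraries of 13 hpf. Its summits in 4 libraries fell within 4 bp, its percentiles were 98.1 or higher, and the nearest Abcam summit lay 14424 bp away. At 13 hpf the highest score of replicate 1, 12.3, came from chrUn_KN150645v1 from 412 to 415, which scored 17.5 in replicate 2. This region also held summits in replicate 1 of 11 hpf (12.3) and replicate 2 of 12 hpf (6.84). The highest of replicate 2, 18.4, came from position 740 of chrUn_KN150574v1, which no other later library shared. Abcam summits of 64C lay 329 bp from the former and 321 bp from the latter, also close to the limit. In replicate 1 of 12 hpf the highest, 16.8, came from position 55 of chrUn_KN149956v1, also in no other library. All 5 of these regions lay on scaffolds.

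Regions of a single stage were common, but few of them had both replicates. Later-only regions held summits of 11 hpf alone in 476 cases (38.4%), of 12 hpf alone in 365 (29.5%), of 13 hpf alone in 234 (18.9%) and of all 3 stages in 38 (3.07%). Among the regions also found at 64C these shares were 31.6%, 17.5%, 10.4% and 17.3%. Both replicates of 1 stage and no other later library were found in 16 later-only regions at 11 hpf, 13 at 12 hpf and 4 at 13 hpf. The remaining 460, 352 and 230 later-only regions of a single stage rested on 1 library. Among the regions also found at 64C, both replicates were present in 380 of the 2616 regions of 11 hpf alone. For 12 hpf alone it was 153 of 1452 and for 13 hpf alone 69 of 862. By stage, both replicates of 11 hpf were present in 4.44% of the later-only regions (21.1% of all later regions), both of 12 hpf in 3.80% (14.7%) and both of 13 hpf in 2.02% (10.4%).

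Of the regions with both replicates of a single stage, the leading 3 of each stage are given here. In 7 of these 9 regions the 2 summits lay within 8 bp. At 11 hpf these were chromosome 18 from 50832 to 50833, with scores of 12.7 and 11.4, chrUn_KN150361v1 from 35327 to 35329 (11.5 and 11.2) and chrUn_KN150702v1 from 212165 to 212168 (10.3 and 9.68). At 12 hpf they were chromosome 17 from 658866 to 659050 (4.84 and 7.82), chrUn_KN150191v1 from 37860 to 37891 (5.78 and 5.89) and chrUn_KN149751v1 from 454 to 457 (6.48 and 5.16). At 13 hpf they were chromosome 13 from 42842021 to 42842022 (8.44 and 6.58), chromosome 15 from 47708188 to 47708192 (5.57 and 8.98) and chromosome 5 from 62388686 to 62388693 (6.34 and 3.88). The 3 regions of 11 hpf thus had mean percentiles of 88.6 to 93.3, and those of the other stages 58.6 to 79.9. Among the 110 later-only regions with 1 summit in each of exactly 2 libraries, the summits lay a median of 38 bp apart, and 61 pairs lay within 50 bp.

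The number of later-only regions did not separate the stages beyond the spread between replicates. At 11 hpf replicates 1 and 2 held 472 and 197, a mean of 334.5 ± 194 (SD, n = 2). At 12 hpf they held 260 and 269 (264.5 ± 6.36), and at 13 hpf 258 and 110 (184 ± 105). The share of a library's regions that were later-only was 9.10% and 6.27% at 11 hpf, a mean of 7.69% ± 2.0. It was 9.28% and 8.13% at 12 hpf (8.70% ± 0.813), and 9.58% and 6.14% at 13 hpf (7.86% ± 2.43). The values of 13 hpf thus enclosed those of both other stages. The stage means were compared with those of every other division of the 6 libraries into pairs, 15 divisions in all. This exact permutation test gave p = 0.867 for the share and p = 0.667 for the number, and the design allows no p below 0.0667. In covered sequence the mean shares, in the order of the stages, were 5.84% ± 2.11, 7.14% ± 1.15 and 6.28% ± 2.96 (p = 0.867, the same exact test).

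**Figure D3:**
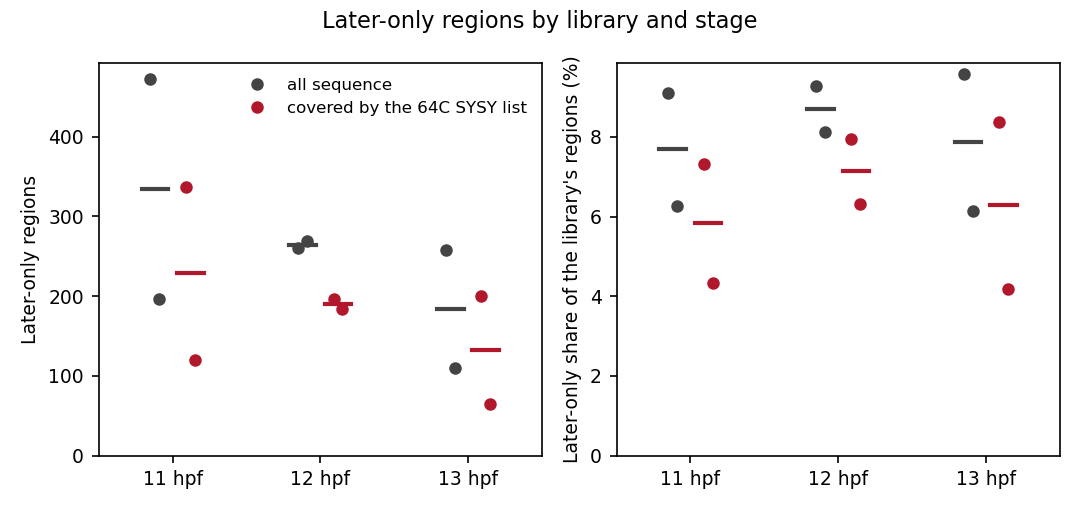
Number of later-only regions (left) and their share of the regions of the library in % (right) at 11, 12 and 13 hpf. Points are the 2 replicates and lines their mean, in black for all sequence and in red for sequence covered by the 64C SYSY list. On the right the replicates of 11 and 13 hpf lie farther apart than the means of the 3 stages.

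Replicates shared slightly more later-only regions than libraries of different stages did. The Jaccard index, the regions present in both libraries over those present in either, was 8.96% between the replicates of 11 hpf, 9.75% between those of 12 hpf and 7.29% between those of 13 hpf. Over the 12 pairs from different stages the mean was 7.08% and the values ran from 4.98% to 8.62%. The difference in means, 1.59 percentage points, was the largest of the 15 pairings (p = 0.0667 in a one-sided exact permutation test, which can go no lower), but the pair of 13 hpf lay within the range of the different stages. On the numbered chromosomes the difference was 0.50 percentage points and in covered sequence 0.22 (p = 0.20 and 0.467, the same exact test). It was larger, 4.63, with summits at or above the median score and 4.54 with the 2439 highest-scoring summits of each later library. Against the Abcam list alone it was 3.81 and against the SYSY list alone 3.01 (p = 0.0667 in each of these 4 settings, the same exact test). On the regions also found at 64C the index was 32.4% for replicates and 26.5% for different stages. Replicates of a stage share an input and libraries of different stages do not, so that a shared stage cannot be told apart from a shared input.

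Recovery in a library that had not been used to define the regions was lower for later-only regions. For each later library in turn, regions were built from the other 5 later libraries and both 64C libraries, and the share with a summit of the left-out library within 250 bp was counted. For later-only regions it was 14.9% and 8.36% in replicates 1 and 2 of 11 hpf, 9.19% and 9.01% in those of 12 hpf, and 8.92% and 5.21% in those of 13 hpf. For regions also found at 64C the values, in the same order, were 46.2%, 31.0%, 25.8%, 30.6%, 24.2% and 18.2%. The means were 9.26% ± 3.13 and 29.3% ± 9.51 (SD, n = 6 libraries), and the 2 sets of values did not overlap. Recovery of later-only regions was lower in 6 of 6 libraries. The mean difference, later-only minus also found at 64C, was −20.1 percentage points, with a range of −31.3 to −13.0. The comparison regions were chosen for holding a summit in a further list, that of 64C, and can be longer through chained 64C summits. For these reasons no test is given.

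The difference in recovery was −8.52 percentage points (5.23% against 13.7%) when both kinds of region were limited to those in exactly 1 of the other 5 libraries. It was −12.2 with summits below the median score of their library. Against the 64C Abcam list alone it was −12.0. It was −31.4 when summits instead of regions were counted and −23.2 in covered sequence, and each of these was again lower in 6 of 6 libraries. Replicates of a stage share an input and the left-out library is compared with overlapping sets of regions, so that the 6 differences are not independent of each other.

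Scores of later-only regions lay toward the lower end of each library. Their median scores in replicates 1 and 2 were 3.93 and 3.94 for 11 hpf, 3.79 and 3.82 for 12 hpf, and 3.51 and 3.99 for 13 hpf. The summits of regions also found at 64C had medians of 4.69, 4.73, 4.33, 4.45, 4.09 and 4.78 in the same order. Ranked within each library, their mean percentile was 40.0 ± 1.94 against 50.7 ± 0.236 (SD, n = 6 libraries), lower in 6 of 6 libraries with differences of −12.8 to −7.15. In the top 10% of scores of a library stood 2.55 to 5.00% of its later-only summits, and 28.1 to 39.8% stood in the lowest 25%. Among regions present in exactly 1 later library the mean percentiles were 36.4 and 37.9, and the difference of −1.50 had the opposite sign in 1 of 6 libraries. Against the 64C SYSY list alone the difference was −3.55, and against the Abcam list alone −5.14. With the number of libraries the mean percentile of later-only summits went from 35.9 in 1 library over 41.1 in 2 and 45.4 in 3 to 55.0 in all 6, and that of regions also found at 64C from 38.4 to 63.4.

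**Figure D4:**
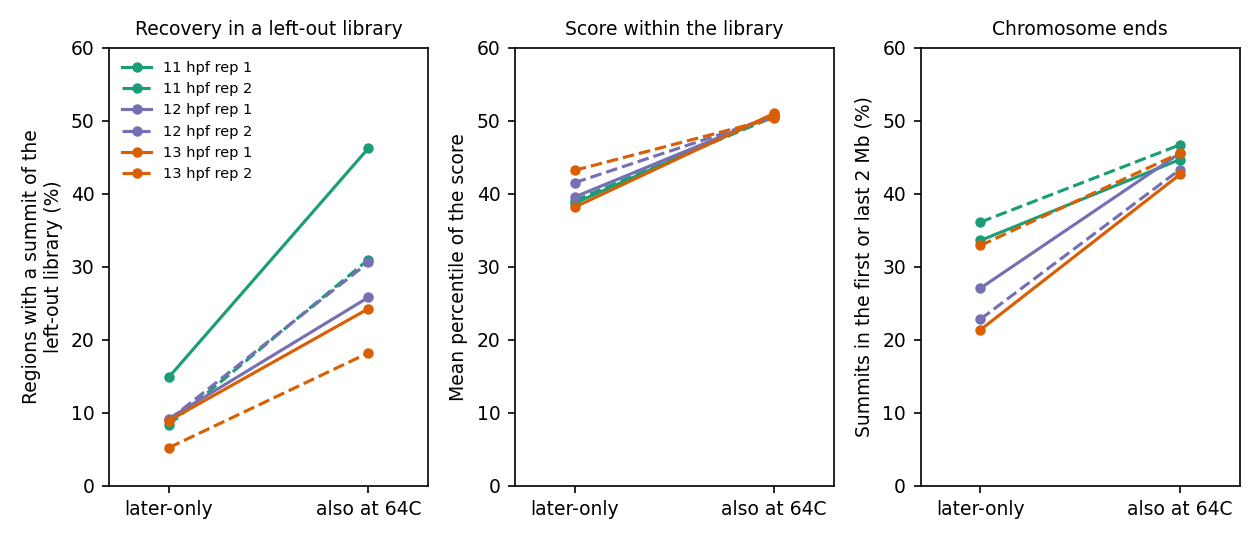
Values of the 6 libraries (1 line each) for later-only regions and regions also found at 64C: share of regions with a summit of the left-out library in % (left), mean percentile of the score within the library (middle) and share of summits in the first or last 2 Mb of the numbered chromosomes in % (right). All lines rise from later-only regions to regions also found at 64C, and the steepest on the left, from 14.9% to 46.2%, is replicate 1 of 11 hpf.

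Few regions had their nearest 64C summit just on either side of the limit of 250 bp. The number of later-only regions still changed with the gap, to 2094 at 100 bp, 962 at 500 bp and 822 at 1000 bp. For regions also found at 64C the nearest later and 64C summits lay a median of 8 bp apart, 8232 of the 8286 had them within 200 bp and 54 between 201 and 250 bp. Just past the limit, 54 later-only regions had a 64C summit 251 to 300 bp away. Over the 1193 later-only regions on sequences with any 64C summit, the nearest lay a median of 3804 bp away, 206 had one within 500 bp, 347 within 1000 bp, and 360 had none within 10000 bp. The other 45 regions lay on 30 scaffolds with no 64C summit at all, and 19 of the 45 recurred (42.2%, where 54.0% of all later regions on scaffolds did). By antibody, the median distance in covered sequence was 6488 bp to a SYSY summit and 13617 bp to an Abcam summit. No later-only region shared a later peak with a summit of a region also found at 64C, and none lay between summits of a single 64C peak. The rule sets every later-only region over 250 bp from all summits outside it, which itself limits both counts. The extent of the peaks was not used, and a broad 64C peak may still reach over a later-only region.

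The 64C lists filled each other's gaps. Against the SYSY list alone, the antibody of the later libraries, 3277 regions of 11 to 13 hpf had no 64C summit, and against the Abcam list alone 3026, where both lists together left 1238. Recurrence in 2 or more later libraries was 25.8% and 30.3% in these larger sets. At 64C either list alone thus lacked summits in regions that the other held.

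**Figure D5:**
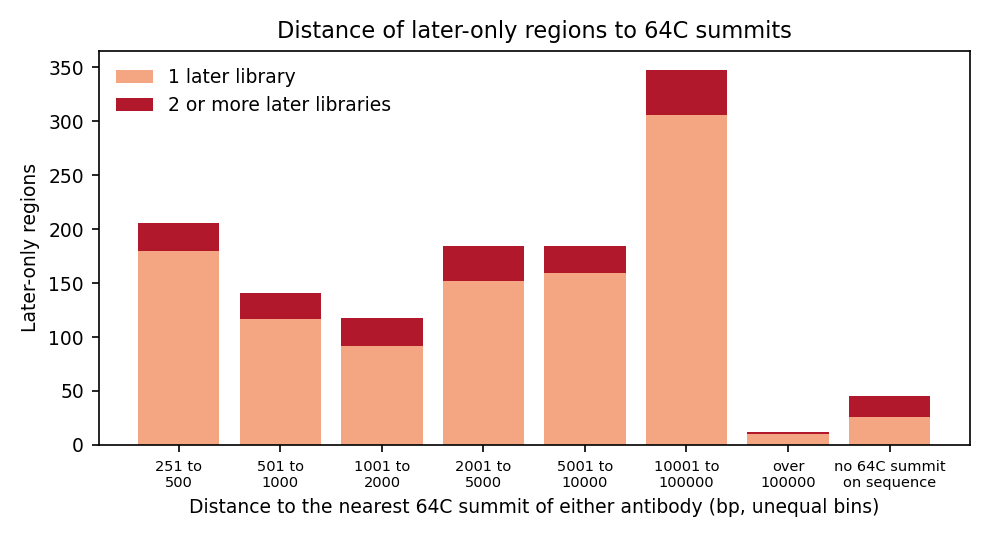
Later-only regions (number, vertical axis) by distance to the nearest 64C summit of either antibody (bp, horizontal axis with unequal bins), stacked as regions in 1 later library and in 2 or more. Of 206 regions at 251 to 500 bp, 26 recurred, and of 45 regions on scaffolds without a 64C summit 19 did, where 43.6% of all later regions and 54.0% of those on scaffolds recurred.

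A smaller share of later-only summits than of the comparison summits lay near the chromosome ends. On the numbered chromosomes, whose ends were set by the outermost summit in the pooled lists, the first or last 2 Mb held 33.6% and 36.1% of later-only summits in replicates 1 and 2 of 11 hpf, 27.1% and 22.8% in those of 12 hpf, and 21.4% and 32.9% in those of 13 hpf. For regions also found at 64C the values ran from 42.6% to 46.7%, with no overlap between the sets. The means were 29.0% ± 6.12 and 44.7% ± 1.53 (SD, n = 6 libraries), a difference of −15.8 percentage points that was negative in 6 of 6 libraries. The lower share is relative to the comparison summits and not to sequence length. Even on the shortest chromosome, 25 with a span of 36898662 bp, 2 Mb at each end is a smaller part than any of the later-only shares. The comparison regions were chosen for holding a 64C summit, a choice that can bear on their position, and no test is given. Of the 64C summits on the numbered chromosomes, 23.5% (SYSY) and 32.2% (Abcam) lay in these ends. Both shares were below that of the comparison summits, and the later-only mean lay between them. Why the comparison summits exceeded both 64C lists was not tested. The difference was −6.30 against the 64C SYSY list alone and −8.58 for the first and last 1 Mb. In covered sequence, without the chromosome ends that the 64C SYSY list leaves out, the shares were 21.7% and 43.7%. Among regions in exactly 1 later library they were 23.6% and 31.7%, lower in 6 of 6 libraries.

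Of the later-only summits, 25.5% ± 5.72 lay on unplaced scaffolds, against 9.49% ± 0.725 for regions also found at 64C (SD, n = 6 libraries), from 17.9% in replicate 1 of 13 hpf to 32.7% in replicate 2 of 11 hpf. No test is given, since the 64C SYSY list has no summit there. Set against the Abcam list alone, which has scaffold summits, the difference of 16.0 percentage points turned to −3.98. The 202 later-only regions on scaffolds lay on 129 scaffolds, 89 of them with a single such region and none with more than 8.

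All 25 numbered chromosomes held later-only regions, from 29 on chromosome 8 to 57 on chromosome 4, and per Mb from 0.513 on chromosome 3 to 1.20 on chromosome 22. In covered sequence they made up 8.55% of the later regions on chromosome 21 to 19.9% on chromosome 22, with a median over chromosomes of 11.0%. Chromosome 22, singled out after its values were seen, had 47 later-only regions, 46 of them in 1 library, beside 189 regions also found at 64C. Chromosome 9 had 37, none of which recurred. Over all covered sequence, to which both chromosomes belong, 10.0% of later-only regions and 42.7% of all later regions recurred. The fullest windows of 1 Mb were on chromosome 21 from 45000001 to 46000000, with 14 later-only regions of which 4 recurred, and on chromosome 15 from 47000001 to 48000000, with 10 of which 5 recurred. Beside them stood 26 regions also found at 64C in the former window and 63 in the latter. The latter is thus near the 13.0% of all later regions that were later-only, and the former is above it. Chromosome 21 from 44000001 to 45000000 also held 10, none of which recurred, beside 18 also found at 64C. All 3 windows lie wholly or in part past the last 64C SYSY summit. Outside covered sequence as a whole, 36.9% of later-only regions and 51.7% of all later regions recurred. Recurrence of all later regions was not counted for these chromosomes and windows. In 608 of 1353 windows (44.9%) there was at least 1 later-only region, in 372 of them a single one. Of the 1238 regions, 156 had another within 1000 bp and 435 within 100 kb.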

How the data were processed

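Per the methods of the study, reads were mapped to danRer10 with Bowtie, a random one being kept among equal best matches (the submitters' processing notes give Bowtie 1.0 and MACS2). Peaks were called by MACS for every IP library, with the input as control and a false discovery rate cutoff of 0.01. The deposited values are the −log10 of the q-value of each summit, 1 list per IP library. The 5 inputs were not analysed here.

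Summits were chained within 250 bp, and presence per library, distances, positions and percentiles of the score within a library were computed with pandas 2.3.3, NumPy 2.4.6 and SciPy 1.17.1 in Python 3.11.15, and plotted with matplotlib 3.10.9. Positions count from 1. Differences between kinds of region were taken within each of the 6 later libraries and are given without a test. Stages and the sharing between replicates were tested over 15 pairings. Counting was tested on simulated lists with known answers. The sources call the replicates biological and say no more of their origin, so that p-values measure the spread between these libraries. Intervals cover counting error only.

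Regions were named by number of later libraries, then mean percentile (the first 12), and, per stage, the first 3 with both replicates and no other later library. The members, lists and alternatives were chosen with earlier results of these data known. No danRer10 sequence or annotation was used here, so that 3 planned results (simple repeats, motifs, gene features) were not run, and no gene or sequence is given.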

Additional observations from a re-analysis of the deposited data

How the results depend on the processing

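The number of later-only regions, 1238, moved to 2094 with a gap of 100 bp, 822 with 1000 bp, 3277 against the 64C SYSY list only, 3026 against the Abcam list only, 482 with summits at or above the median score and 540 with the 2439 highest-scoring summits of each later library. The share in 2 or more libraries (15.8%) moved to 25.8% (SYSY only), 30.3% (Abcam only), 19.3% (1 summit per peak), 11.6% (numbered chromosomes) and 10.0% (covered sequence). The share in both replicates (8.24%) moved to 15.6%, 18.5%, 10.4%, 4.92% and 3.51% in the same order, and to 10.2% with scores at or above the median. The matching shares of all later regions were 42.7% and 28.5% in covered sequence and were not counted in the other settings. The difference in share between 13 and 11 hpf, 0.18 percentage points, turned to −0.0755 (SYSY only) and −0.0137 (1 summit per peak). It was 0.751 (Abcam only) and 2.70 with the 2439 highest-scoring summits of each later library. The exact permutation test over pairings compared the means of all later stages and not this difference alone. Its p can go no lower than 0.0667, so that it could not pass a threshold of 0.05 and cannot show stability. The scaffold difference turned to −3.98 (Abcam only). It was 45.7 (SYSY only), 25.6 (scores at or above the median) and 24.2 (equal number of summits), against 16.0. The score difference (−10.7) was −3.55 (SYSY only), −5.14 (Abcam only), −5.58 (scores at or above the median), −6.09 (equal number) and −1.50 among regions in exactly 1 later library, an alternative chosen after seeing the data.

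With each later library left out in turn, the number of regions ran from 900 to 1190, recurrence from 14.2 to 15.5%, both replicates from 5.72 to 8.18%, recovery in a left-out library from −21.7 to −20.4 percentage points, the score from −11.3 to −10.0, the ends from −16.7 to −14.6, scaffolds from 14.9 to 18.8, the Jaccard difference from 1.05 to 2.07 and the stage difference from −1.49 to 2.09. It turned to −1.26 without replicate 2 of 11 hpf and to −1.49 without replicate 1 of 13 hpf. The replicate block leaves the stage difference of 0.18 unchanged by construction, and gave p = 0.667 (exact permutation over 6 regroupings). Region by region, replicate 1 minus replicate 2 had correlations of −0.07 to 0.04 between stages over later-only regions. As 84.2% of these regions lay in 1 library, such correlations are held near 0 and cannot show whether equal replicate numbers deviate together. The later-only share was higher in replicate 1 at 11 hpf (9.10% against 6.27%), 12 hpf (9.28% against 8.13%) and 13 hpf (9.58% against 6.14%). The scaffold share of later-only summits was higher in replicate 2 at each of these stages. Of the alternatives planned, those on sequence and genes were not run. The unknown depth limits all statements on absence.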
